A study of Mus musculus with 45 samples.

Results

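Serpinb2, Serpine2, Serpini1, Plat, Plau and Plaur code for the plasminogen activators, their serpin inhibitors and the cell-surface receptor that one of the activators uses. These 6 genes were taken by symbol from a table of 54532 genes, and all 6 were found and tested in every comparison. They were followed in mouse hippocampal cultures that were driven to fire and in which, while the drive went on, firing was then blocked, either by itself or together with an excitotoxic stimulus, or the uptake of glutamate was blocked.

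Plasminogen activators are serine proteases that cut plasminogen into the broad protease plasmin. Plat codes for the tissue-type activator (tPA), which neurons release, and Plau for the urokinase-type activator (uPA), which is held at the cell surface by the receptor that Plaur codes for (uPAR). Serpins stop these proteases by trapping them in a stable complex. Serpinb2 (plasminogen activator inhibitor-2, PAI-2) acts on uPA and tPA and stays largely inside the cell, Serpine2 (protease nexin-1) acts on thrombin, uPA and tPA, and Serpini1 (neuroserpin) is the inhibitor of tPA made by neurons. In brain the system is known for its part in synaptic plasticity, in matrix turnover and in the injury caused by overactive glutamate receptors.

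The cultures came from the hippocampus of newborn C57BL/6N mice, were grown in medium with B27 and 1% rat serum, received AraC, which stops dividing cells, on day 3 in vitro, and were treated on day 10 or 11 by the sample labels (day 11 by the methods). Polyadenylated RNA was sequenced from 9 conditions in 5 culture preparations (numbered 1, 3, 6, 7 and 8), which gave 45 libraries with 1 library of each condition per preparation. The conditions were an untreated control, 50 µM bicuculline (Bic) for 0.5 h, 1 h or 2 h, and 5 interventions in which Bic stayed in the medium. Bic blocks the inhibitory GABA-A receptor and so makes the network fire action potentials. The short protocol (SP) began with 0.5 h of Bic alone, after which 1 µM tetrodotoxin, which blocks action potentials, was present for 0.5 h either by itself (SP TTX) or together with 30 µM NMDA (SP TTX/NMDA), which opens NMDA receptors all over the cell. The long protocol (LP) had 1 h of Bic and then 1 h with TTX (LP TTX), with TTX and NMDA (LP TTX/NMDA), or with 50 µM TBOA (LP TBOA), which blocks the uptake of glutamate. LP TTX against 2 h Bic gives what silencing alone did, LP TTX/NMDA against LP TTX gives what NMDA added to it, and LP TBOA against 2 h Bic gives the effect of glutamate spillover. A limit of the model is that these are mixed cultures of newborn tissue read out in bulk, so fewer cells of a type and less RNA per cell cannot be told apart.

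Libraries held between 11316580 and 81129276 counted reads (median 26239614), and no pair of libraries held the same counts. Levels are given as normalised read counts (CPM, counts relative to library size), scaled with edgeR's TMM factors over all 45 libraries. Neuronal markers were the most abundant markers in all 9 conditions, with the sum of 7 of them between 5283 and 7690 CPM, but astrocyte markers (7 genes, 927 to 2130 CPM), fibroblast and mural cell markers (6 genes, 69.4 to 231 CPM) and oligodendrocyte lineage markers (7 genes, 101 to 313 CPM) were also present. Microglial markers (7 genes) reached 8.94 CPM and endothelial markers (5 genes) 6.20 CPM, and the endothelial gene Cldn5 had 0 to 3 reads per library. Preparation 8 stood apart for Serpinb2, with the highest level of the 5 preparations in 7 of the 9 conditions. The same preparation had the lowest sums of fibroblast and mural, oligodendrocyte lineage and endothelial markers in all 9 conditions. The comparisons, the shares and the order of means of Serpinb2 are therefore given with and without preparation 8, and the part of these marker levels in it was not tested.

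All 6 genes are protein coding in the GRCm38 build (GENCODE M21). Serpinb2 (ENSMUSG00000062345) lies at chr1:107511423-107535478 on the plus strand, and its exons overlap in part with those of its neighbour Serpinb10 (chr1:107529003-107549271), which leaves 2058 of its 2349 exonic bases to Serpinb2 alone. Reads that overlap both genes were not counted by the authors. Serpinb10 itself had 0 reads in all control, Bic and LP TBOA libraries and at most 3 reads in any other. Serpine2 (ENSMUSG00000026249) is on chromosome 1 as well, at chr1:79794197-79861180 on the minus strand. Serpini1 (ENSMUSG00000027834) is at chr3:75557547-75643495, Plat (ENSMUSG00000031538) at chr8:22757727-22782844, Plau (ENSMUSG00000021822) at chr14:20836660-20843385 and Plaur (ENSMUSG00000046223) at chr7:24462484-24475968, each on the plus strand.

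The promoters are shown for the inhibitor that rose with firing (Serpinb2) and for an inhibitor and the receptor that rose under NMDA (Serpine2 and Plaur), as the 250 bases before the RefSeq transcription start (GRCm38.p6), read in the direction of the gene. Capitals mark letters that match a searched motif. Serpinb2 lies at chr1:107511173-107511422 (plus strand), Serpine2 at chr1:79858666-79858915 (minus strand) and Plaur at chr7:24462233-24462482 (plus strand).
Serpinb2: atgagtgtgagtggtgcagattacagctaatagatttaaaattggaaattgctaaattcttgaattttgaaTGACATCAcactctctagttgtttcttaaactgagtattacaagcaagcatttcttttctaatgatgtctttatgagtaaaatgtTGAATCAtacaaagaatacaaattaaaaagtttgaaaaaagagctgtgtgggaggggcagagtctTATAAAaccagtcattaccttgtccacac
Serpine2: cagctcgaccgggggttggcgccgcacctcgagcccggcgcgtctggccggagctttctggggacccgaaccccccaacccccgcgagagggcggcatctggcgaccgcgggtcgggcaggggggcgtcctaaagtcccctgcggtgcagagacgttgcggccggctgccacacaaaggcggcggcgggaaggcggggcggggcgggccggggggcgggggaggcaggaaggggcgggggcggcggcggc
Plaur: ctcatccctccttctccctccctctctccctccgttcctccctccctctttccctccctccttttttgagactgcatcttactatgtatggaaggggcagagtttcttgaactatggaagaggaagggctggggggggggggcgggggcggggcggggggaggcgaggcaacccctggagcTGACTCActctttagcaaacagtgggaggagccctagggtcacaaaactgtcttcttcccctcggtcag

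The motifs were searched on both strands. They were the cAMP response element TGACGTCA, the same element with a free base at its centre (TGACNTCA, which includes every TGACGTCA), the partial site TGACG, the AP-1 site TGANTCA, the TATA box TATAAA and the CArG box, which serum response factor binds. The Serpinb2 window held TGACATCA 179 to 172 bases before the start, TGAATCA 94 to 88 bases before it and TATAAA 29 to 24 bases before it. TGACNTCA was present in 7.49% of 32817 such windows of all genes, TGANTCA in 6.75% and TATAAA in 12.4%. A second RefSeq start of Serpinb2 lies at base 107511510, and its window held the AP-1 and TATA letters alone. The Plaur window held TGACTCA 69 to 63 bases before the start, and the windows of Serpine2 and Serpini1 held none of these motifs. The full TGACGTCA (1.55% of windows), TGACG (17.7%) and the CArG box (1.47%) were found in none of the 4 genes. GC content differed widely, with 32.4% in the Serpinb2 window, 59.6% in that of Plaur, 61.2% in that of Serpini1 and 78.8% in that of Serpine2. These matches describe letters only.

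Per kilobase of exon, the resting order was Serpini1 with a mean of 42.9 CPM per kb, Serpine2 with 18.7, Plat with 5.56, Plau with 2.98, Plaur with 0.163 and Serpinb2 with 0.0768. In untreated cultures the transcripts of the extracellular inhibitors thus outnumbered those of both activators, and Serpinb2 was at the edge of detection. After 2 h of Bic, Plat had 14.6 CPM per kb, close to the 19.5 of Serpine2, and Serpinb2 had 1.77, above the 0.141 of Plaur. Serpini1, Serpine2, Plat and Plau kept the first 4 places in this order of means in all 9 conditions.

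Serpinb2 was nearly silent at rest and became measurable only late. In control it had 0.0870, 0.0906, 0, 0.0400 and 0.573 CPM in preparations 1, 3, 6, 7 and 8, which came from 1, 2, 0, 2 and 11 reads. The 0 of preparation 6 allows up to 0.103 CPM, the level that 3 reads would have given, and this limit covers counting error only. After 0.5 h of Bic the values were 0, 0, 0.123, 0.0372 and 0.408 CPM, and after 1 h 0.177, 0.0633, 0.162, 0.0768 and 1.17 CPM. These 3 conditions overlapped, and preparation 8 was the highest in each.

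After 2 h of Bic, Serpinb2 reached 3.17, 3.04, 3.08, 5.90 and 3.04 CPM, from 57 to 183 reads. Every 2 h library was above every library of control, 0.5 h Bic and 1 h Bic, and preparation 8, the highest before, was level with preparations 1, 3 and 6. The mean was 3.65 ± 1.26 CPM (SD, n = 5) against 0.158 ± 0.235 in control and 0.329 ± 0.471 after 1 h. Without preparation 8 these means were 3.80 ± 1.40, 0.0544 ± 0.0430 and 0.120 ± 0.0582 CPM. The fitted log2 fold change against control was 4.81 (SE 0.39, adjusted p = 1.14e-11, edgeR's quasi-likelihood test), a 28.1-fold increase whose size rests on 16 control reads in all. It was 6.29 without preparation 8 and 4.09 without preparation 7, which had the highest 2 h value. At 1 h the log2 fold change was 1.10 (SE 0.70, adjusted p = 0.658) and at 0.5 h it was -0.26 (SE 0.78, adjusted p = 0.966), so a change was not detectable at this depth. Without preparation 8 these values were 1.32 (adjusted p = 0.707) and -0.19 (adjusted p = 0.981). In a comparison chosen after these values were seen, the 2 h libraries exceeded the 1 h libraries by a log2 fold change of 3.72 (SE 0.36, adjusted p = 2.07e-09), or 4.96 without preparation 8.

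**Figure D1:**
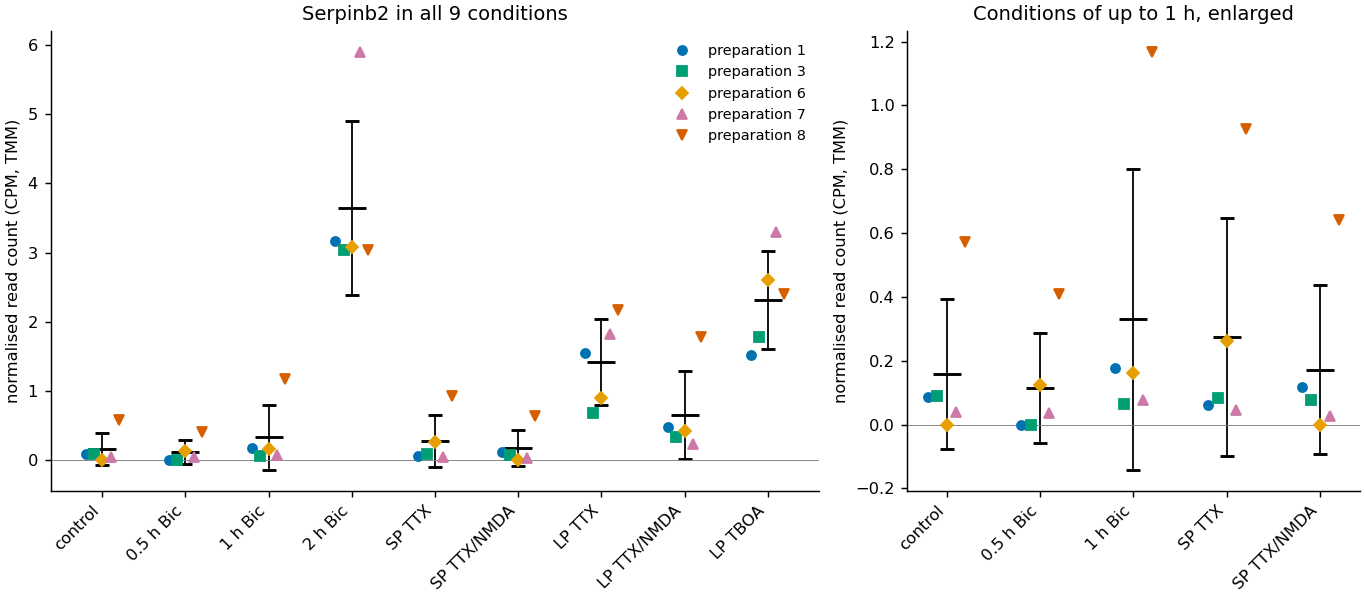
Serpinb2 level (CPM, TMM-scaled) in each of the 45 libraries, by condition on the horizontal axis, with colour and shape for the culture preparation and bars for the mean ± SD (n = 5). The left panel shows all 9 conditions and the right panel enlarges the conditions of up to 1 h, where preparation 8 (downward triangles) lay above the other 4 in every condition and the SD bars reach below 0.

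Silencing the neurons with TTX in the long protocol left Serpinb2 below its level under unbroken firing. LP TTX libraries had 1.55, 0.684, 0.897, 1.82 and 2.16 CPM, all below the lowest 2 h Bic library, and Serpinb2 was lower in 5 of 5 preparations. The fall was -1.36 on the log2 scale (SE 0.23, adjusted p = 0.000206, edgeR) and -1.60 without preparation 8. The call was lost in a fit that shared 1 estimate of the spread over all 45 libraries (adjusted p = 0.0545). Against the 1 h Bic libraries, which mark the time at which TTX was added, LP TTX libraries were still higher, by a log2 fold change of 2.36 (SE 0.42, adjusted p = 0.000106), or 3.36 without preparation 8. This comparison was also chosen after the values were seen.

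Adding NMDA brought Serpinb2 lower again. LP TTX/NMDA libraries had 0.482, 0.336, 0.418, 0.223 and 1.77 CPM, from 20, 17, 6, 5 and 64 reads, and each was below the LP TTX library of its own preparation. Preparation 8 stood above the other 4, and through it the 2 groups overlapped. The log2 fold change against LP TTX was -1.10 (SE 0.37, adjusted p = 0.0285, edgeR), -1.76 without preparation 8 (adjusted p = 2.51e-07) and -1.12 with the culture preparation as a replicate block (adjusted p = 0.00120). The call was lost without preparation 1 (-0.96, adjusted p = 0.107), without preparation 7 (-0.79, adjusted p = 0.119), with DESeq2 (adjusted p = 0.139), with the filterByExpr read filter (adjusted p = 0.0780) and with all 45 libraries in 1 fit (adjusted p = 0.103). Against 2 h Bic, the log2 fold change was -2.45 (SE 0.31, adjusted p = 1.29e-07) and -3.37 without preparation 8, and it stayed called in each of these alternatives. Against 1 h Bic, Serpinb2 was higher in 5 of 5 preparations under LP TTX/NMDA, with a log2 fold change of 1.25 (SE 0.51) that was not called (adjusted p = 0.0813). It was called without preparation 8 (1.59, adjusted p = 0.00594), without preparation 7 (1.19, adjusted p = 0.00624) and with the preparation as a block (1.09, adjusted p = 0.00772), and in none of the other 7 alternatives (adjusted p from 0.0508 to 0.450).

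Under LP TBOA, Serpinb2 had 1.52, 1.77, 2.60, 3.30 and 2.40 CPM, lower than 2 h Bic in 5 of 5 preparations although the groups overlapped. The log2 fold change was -0.72 (SE 0.20, adjusted p = 0.0984). It was called with the preparation as a block (-0.67, adjusted p = 0.0227) and without preparation 8 (-0.84, adjusted p = 0.000162), a fit in which edgeR set 1 trend of spread for all genes. In the short protocol Serpinb2 stayed near its resting level. SP TTX libraries had 0.0601, 0.0818, 0.262, 0.0441 and 0.925 CPM, and SP TTX/NMDA libraries 0.117, 0.0767, 0, 0.0271 and 0.640 CPM. The fit gave 0.24 (SE 0.57) for SP TTX against 1 h Bic, although 3 of 5 preparations were lower, and -0.77 (SE 0.62) for SP TTX/NMDA against SP TTX, and neither was called. Without preparation 8 they were 0.27 (adjusted p = 0.979) and -1.39 (adjusted p = 0.292). The effect of TTX in the long protocol minus that in the short protocol was -1.69 (SE 0.68, adjusted p = 0.809) and -1.93 without preparation 8 (adjusted p = 0.281), so a difference between the protocols was not established.

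The mean levels of Serpinb2 ran from 2 h Bic (3.65 CPM) through LP TBOA (2.32), LP TTX (1.42) and LP TTX/NMDA (0.646) down to 1 h Bic (0.329) and the remaining 4 conditions (0.114 to 0.275 CPM). The steps between 2 h Bic, LP TBOA, LP TTX and LP TTX/NMDA were each larger than the larger of the neighbouring SDs, and the steps below LP TTX/NMDA were not. Neighbours in this order overlapped in every case. Without preparation 8 the means were 3.80, 2.30, 1.24, 0.365 ± 0.112 and 0.120 ± 0.0582 CPM, with 0.0399 to 0.112 CPM in the remaining 4 conditions. The step from LP TTX/NMDA to 1 h Bic was then larger than the larger SD as well, and LP TTX/NMDA overlapped with neither LP TTX nor 1 h Bic.

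Plat, the tissue-type activator, rose with firing as well, from a level that was already well measured. Control libraries had 31.9, 39.5, 30.2, 40.8 and 30.97 CPM in preparations 1, 3, 6, 7 and 8, and 1 h Bic libraries 40.8, 50.8, 41.1, 57.0 and 50.2 CPM. The rise at 1 h was 0.46 on the log2 scale (SE 0.10, adjusted p = 0.00380) and was seen in 5 of 5 preparations, but the call was lost with the filterByExpr filter (adjusted p = 0.0525) and with all 45 libraries in 1 fit (adjusted p = 0.0513). After 2 h the values were 89.9, 98.0, 84.2, 104 and 79.5 CPM, and no 2 h library overlapped with control or with 1 h Bic. The log2 fold change against control was 1.38 (SE 0.09, adjusted p = 4.71e-14), a 2.59-fold increase. From 1 h to 2 h it was 0.92 (SE 0.08, adjusted p = 2.02e-10).

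Plat and Serpinb2 were the only members called in the comparisons of Bic with control. Among all genes tested, 0.289% were called at 0.5 h (0 members, with 1104 genes at an unadjusted p below 0.05), 1.16% at 1 h (1 member) and 9.02% at 2 h (2 members). These comparisons share the 5 control libraries. At 2 h, Serpine2 had a log2 fold change of 0.05 (SE 0.12), Serpini1 of -0.08 (SE 0.07), Plau of 0.28 (SE 0.17, higher in 5 of 5 preparations) and Plaur of -0.20 (SE 0.36), with adjusted p between 0.415 and 0.854.

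In the long protocol Plat stayed above control in every library of all 3 interventions. LP TTX libraries had 82.2, 91.5, 87.6, 95.5 and 61.7 CPM of Plat, with a log2 fold change against 2 h Bic of -0.13 (SE 0.09, adjusted p = 0.533). With the preparation as a block this difference was called (-0.15, adjusted p = 0.0344). LP TTX/NMDA libraries had 72.2, 75.9, 61.4, 85.8 and 56.7 CPM, below the LP TTX library in 5 of 5 preparations. The difference from LP TTX was -0.26 (SE 0.10, adjusted p = 0.0650) and was called with the block (-0.23, adjusted p = 0.00135), without preparation 7 (-0.29, adjusted p = 0.0253) and without preparation 8 (-0.28, adjusted p = 0.00416). Against 2 h Bic the fall was -0.38 (SE 0.09, adjusted p = 0.00126). LP TBOA libraries had 68.5, 80.1, 69.1, 83.8 and 65.7 CPM, lower than 2 h Bic in 5 of 5 preparations by -0.30 (SE 0.07, adjusted p = 0.0525), which was called with the block (adjusted p = 0.00296), with RLE size factors (adjusted p = 0.0420) and with DESeq2 (adjusted p = 0.0443).

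The share of the 2 h increase that each intervention kept was computed in each preparation as the level above its own control over the 2 h Bic level above that control. For Serpinb2 it was 38.3 ± 17.7% in LP TTX (SD, n = 5, range 20.1 to 64.6%), 17.3 ± 18.02% in LP TTX/NMDA (3.13 to 48.6%) and 63.5 ± 15.4% in LP TBOA (46.3 to 84.5%). Without preparation 8 it was 31.8 ± 11.3%, 9.45 ± 4.81% and 60.9 ± 16.4%. For Plat it was 86.5 ± 15.3% in LP TTX, 62.8 ± 7.86% in LP TTX/NMDA and 68.9 ± 3.61% in LP TBOA. At 1 h of Bic, when the interventions began, Serpinb2 stood at 6.41 ± 10.2% of the 2 h increase, or at 1.98 ± 2.71% without preparation 8, and Plat at 24.1 ± 9.46%. The shares of one condition use the same control and 2 h Bic libraries as the others and are given as a description, without a test.

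**Figure D2:**
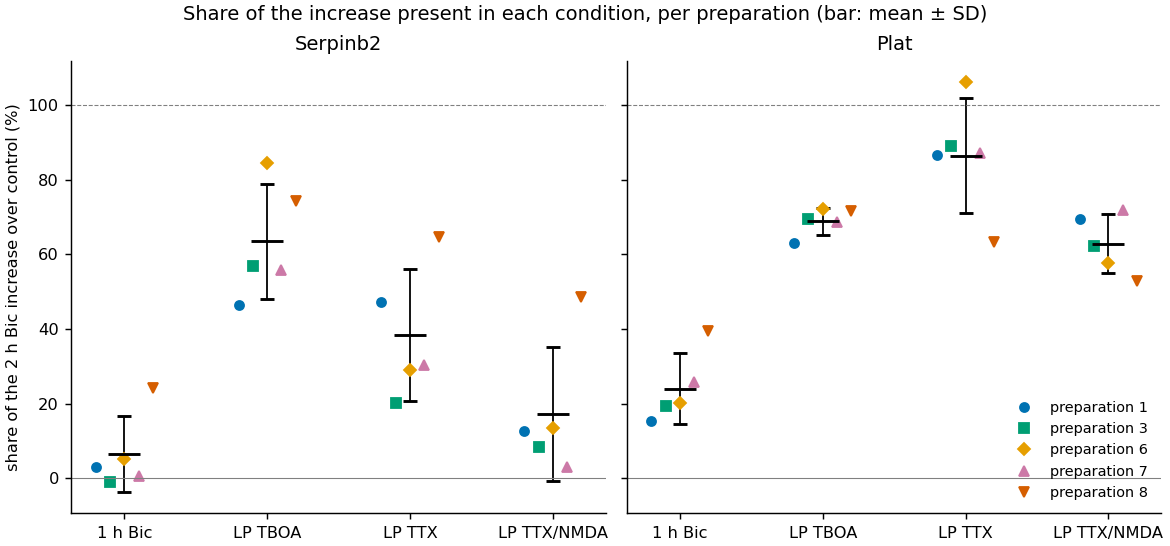
Share of the increase from control to 2 h Bic (vertical axis, percent) that was present in each condition for Serpinb2 (left) and Plat (right), with 1 point per preparation and bars for the mean ± SD (n = 5). For Plat, LP TTX and LP TTX/NMDA points lie between 52.9% and 106%, and for Serpinb2 the LP TTX/NMDA points of 4 preparations lie between 3.13% and 13.6% while preparation 8 is at 48.6%.

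Serpine2, the secreted inhibitor of thrombin and of both activators, was called in no comparison of Bic with control and rose under NMDA. Control libraries had 130, 201, 119, 187 and 138 CPM and 2 h Bic libraries 152, 179, 125, 201 and 152 CPM. LP TTX libraries were in the same range, with 172, 194, 134, 211 and 127 CPM. In LP TTX/NMDA the values were 344, 287, 209, 368 and 209 CPM, higher than LP TTX in 5 of 5 preparations, with the groups just overlapping. The rise was 0.75 on the log2 scale (SE 0.13, adjusted p = 7.05e-05), a 1.68-fold increase, and it was called in all 10 alternatives. Against 2 h Bic it was 0.80 (SE 0.12, adjusted p = 2.61e-06), and those groups did not overlap. LP TBOA libraries had 194, 191, 219, 207 and 166 CPM, higher than 2 h Bic in 5 of 5 preparations by 0.28 (SE 0.09, adjusted p = 0.179). That difference was called without preparation 7 (0.34, adjusted p = 0.0233) and without preparation 8 (0.31, adjusted p = 0.000795), and it was 0.16 without preparation 6 (adjusted p = 0.802).

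Serpini1, neuroserpin, had the highest level per kilobase and the narrowest relative range of condition means. Control libraries had 281, 348, 305, 318 and 313 CPM, and the 9 condition means lay between 282 and 344 CPM. LP TTX libraries had 316, 331, 349, 345 and 361 CPM against 297, 311, 285, 302 and 298 CPM in 2 h Bic, and the groups did not overlap. The log2 fold change of 0.18 (SE 0.06) was not called (adjusted p = 0.0672) but was called with the preparation as a block (0.17, adjusted p = 0.00373), with DESeq2 (adjusted p = 0.00598), with the filterByExpr filter (adjusted p = 0.0329) and without preparation 1 (0.21, adjusted p = 0.0436). For LP TTX/NMDA against LP TTX the log2 fold change was 0.01 (SE 0.07, adjusted p = 0.956). Against 2 h Bic, LP TTX/NMDA was 0.19 higher (SE 0.07, adjusted p = 0.0312), a call that was lost without preparation 3 (adjusted p = 0.0835) and without preparation 6 (adjusted p = 0.0854). At 1 h of Bic, Serpini1 was lower than in control in 5 of 5 preparations, by -0.15 (SE 0.08, adjusted p = 0.658).

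Plau, the urokinase-type activator, had 6.44, 10.2, 6.86, 6.70 and 4.997 CPM in control. It had 9.44, 10.3, 7.71, 9.09 and 5.25 CPM in LP TTX and 21.8, 17.3, 12.1, 17.5 and 8.22 CPM in LP TTX/NMDA, higher in 5 of 5 preparations. Only the library of preparation 8 fell within the LP TTX range. The rise was 0.88 on the log2 scale (SE 0.18, adjusted p = 0.000352), a 1.84-fold increase, and was called in all 10 alternatives. Against 2 h Bic it was 0.83 (SE 0.18, adjusted p = 0.000610). LP TTX against 2 h Bic gave -0.05 (SE 0.16, adjusted p = 0.913) for Plau, and LP TBOA gave 0.13 (SE 0.16, adjusted p = 0.793). Preparation 8 was the lowest for Plau in 9 of 9 conditions, and preparation 3 the highest in 6 of 9.

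Plaur, the uPA receptor, was measured from few reads, 3 to 48 per library. Control libraries had 0.522, 0.453, 0.377, 0.360 and 0.416 CPM. LP TTX libraries had 0.386, 0.463, 0.762, 0.375 and 0.271 CPM and LP TTX/NMDA libraries 1.13, 0.948, 0.696, 0.759 and 0.332 CPM, higher in 4 of 5 preparations. The log2 fold change was 0.86 (SE 0.30, adjusted p = 0.0363). The call was lost without preparation 1 (0.63, adjusted p = 0.223), without preparation 3 (0.79, adjusted p = 0.124), without preparation 7 (0.80, adjusted p = 0.0881) and with DESeq2 (0.82, adjusted p = 0.0609). Against 2 h Bic, Plaur was higher in 5 of 5 preparations by 1.12 (SE 0.34, adjusted p = 0.0143). No other planned comparison called it.

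**Figure D3:**
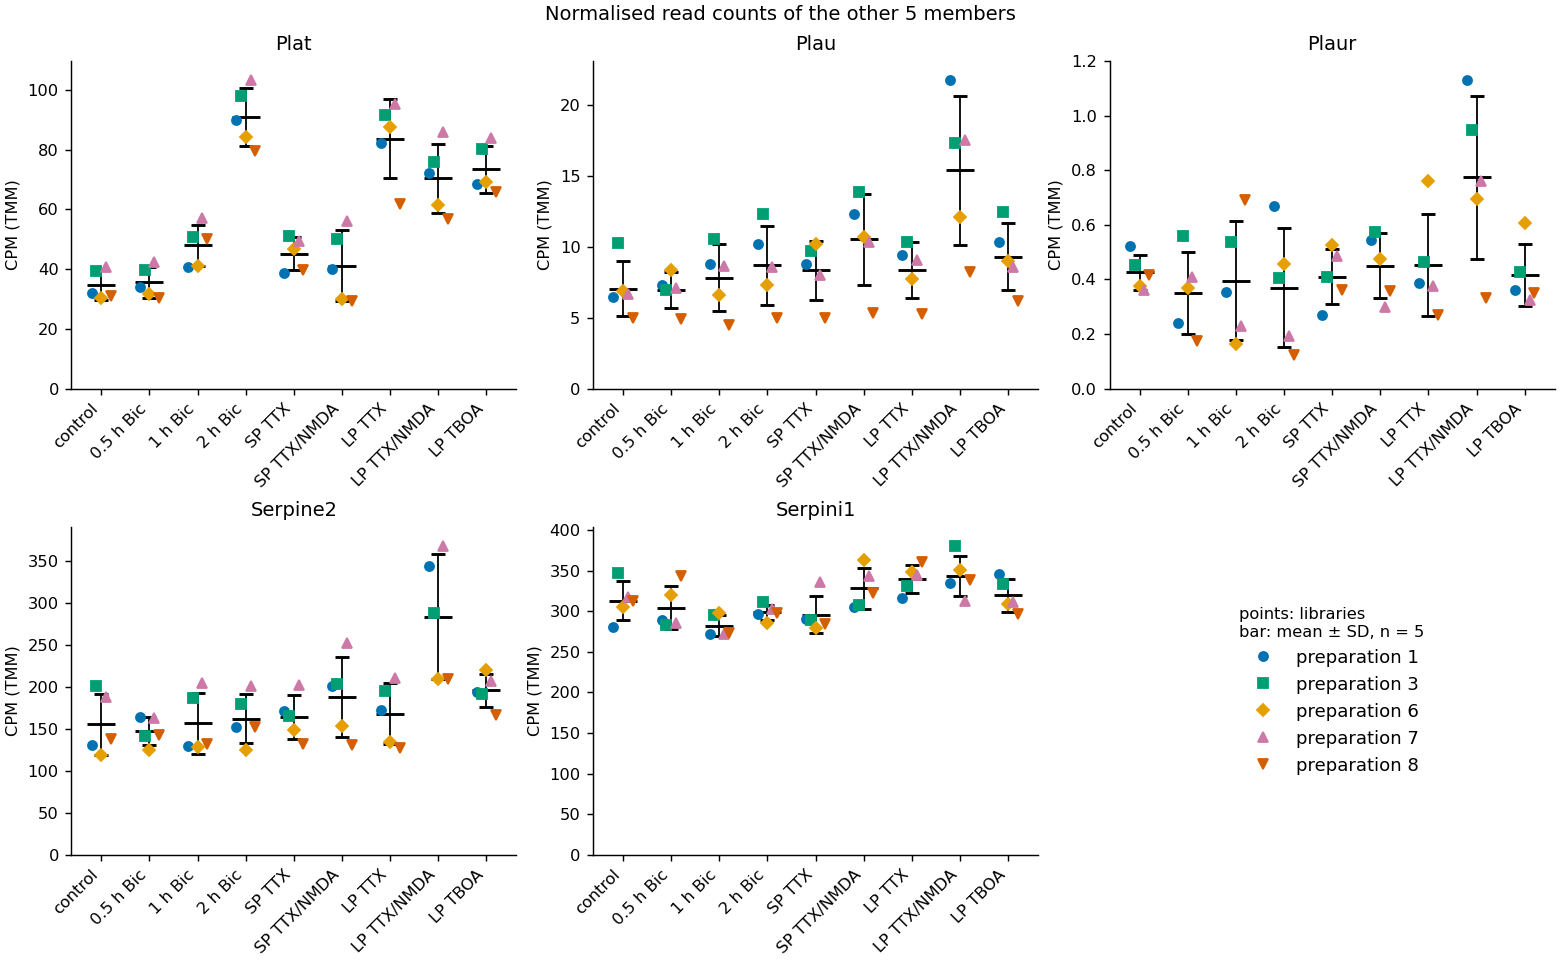
Levels (CPM, TMM-scaled) of Plat, Plau, Plaur, Serpine2 and Serpini1 in all 45 libraries, by condition, with colour and shape for the preparation and bars for the mean ± SD (n = 5). Plat steps up at 2 h Bic and stays up in the long interventions, while Plau, Plaur and Serpine2 have their highest means in LP TTX/NMDA (15.4, 0.774 and 283 CPM) and Serpini1 stays between 282 and 344 CPM on average.

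Under the excitotoxic stimulus the called members went in both directions, as did the called genes as a whole. For LP TTX/NMDA against LP TTX, 4 of 6 members were called, 3 higher (Serpine2, Plau, Plaur) and 1 lower (Serpinb2). Of all genes tested 23.3% were called, 3807 higher and 3861 lower. For LP TTX/NMDA against 2 h Bic all 6 were called, 4 higher and 2 lower (Serpinb2 and Plat), against 22.8% of all genes. For LP TTX against 2 h Bic, 1 member was called (Serpinb2), against 4.65% of all genes. The shares over all genes take in every gene with 1 read or more. With filterByExpr 7826 of 16399, 7426 of 15947 and 1712 of 15570 genes were called in these comparisons, in this order. The comparisons share libraries with each other, so each is read on its own.

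The comparisons with 1 h Bic that were chosen after the values were seen show the members from the moment the long interventions began. From 1 h to 2 h of Bic 2 members were called (Serpinb2 and Plat), where 5.33% of all genes were. From 1 h Bic to LP TTX 3 were called, all higher, where 7.19% of all genes were, and the third beside Serpinb2 and Plat (0.80, SE 0.09, adjusted p = 2.87e-08) was Serpini1 (0.26, SE 0.06, adjusted p = 0.00453). From 1 h Bic to LP TTX/NMDA 5 were called, all higher, where 21.1% of all genes were. They were Plat (0.54, adjusted p = 2.54e-05), Serpine2 (0.85, adjusted p = 1.17e-06), Plau (0.97, adjusted p = 3.90e-05), Serpini1 (0.27, adjusted p = 0.00312) and Plaur (1.08, adjusted p = 0.0176, lost without preparation 1 at 0.122, without preparation 6 at 0.0711 and with DESeq2 at 0.0502). Plat was thus higher at the end of the hour with TTX and NMDA than at its start, in 5 of 5 preparations, while it stayed below its 2 h Bic level.

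**Figure D4:**
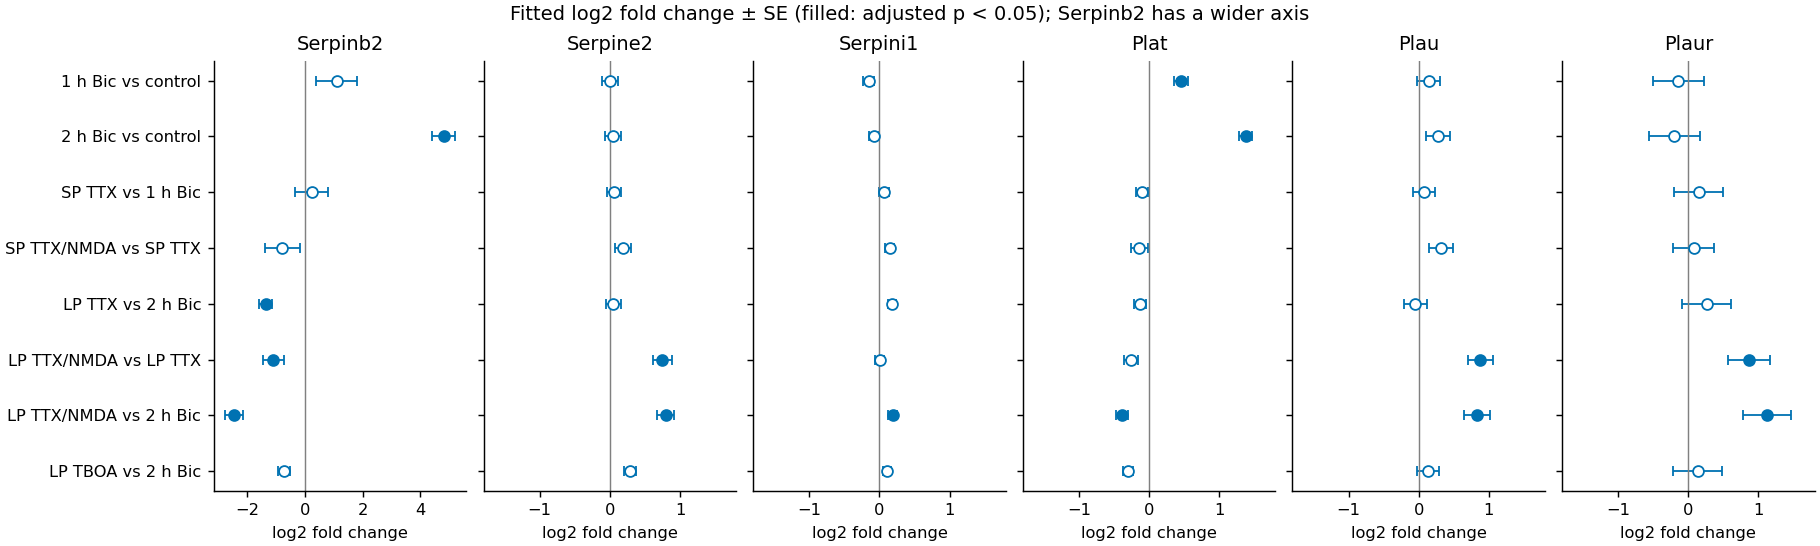
Fitted log2 fold change ± SE (horizontal axis) of each member in 8 comparisons, with filled points for an adjusted p below 0.05 and a wider axis for Serpinb2. Serpine2, Plau and Plaur are filled and to the right in both LP TTX/NMDA comparisons (0.75 to 1.12), and Serpinb2 is filled and to the left in them (-1.10 and -2.45).

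Markers of other cell types moved in the same comparison. In LP TTX/NMDA against LP TTX, 6 of 7 astrocyte markers were higher and 1 was lower (Slc1a2, -0.36), and their summed level went from 1028 to 1555 CPM over the LP TTX libraries to 1185 to 2130 CPM. All 6 fibroblast and mural cell markers were higher (sums of 80.5 to 156 against 108 to 231 CPM), as were 5 of 7 oligodendrocyte lineage markers (101 to 168 against 159 to 313 CPM), 2 of 7 microglial markers (5.57 to 7.43 against 6.46 to 8.94 CPM) and 1 of 5 endothelial markers (2.49 to 4.19 against 2.60 to 6.20 CPM). Of 7 neuronal markers, 3 were lower (Slc17a7, Map2 and Syt1, by -0.83, -0.59 and -0.24), and the sums were 6711 to 7690 against 5591 to 6378 CPM. The log2 changes of Serpine2, Plau and Plaur (0.75, 0.88 and 0.86) lay close to the span of the 6 astrocyte markers that rose, 0.76 to 0.90. The part of these marker changes in the rise of the 3 genes was not tested. Across preparations, Serpine2 was highest in preparation 7 in 6 of 9 conditions, and the astrocyte sum was highest there in 7 of 9. Plat, which did not rise from LP TTX to LP TTX/NMDA, was highest in preparation 7 in 8 of 9 conditions. Plau was lowest in preparation 8 in all 9 conditions, as were the fibroblast and mural sum and the oligodendrocyte lineage sum.

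**Figure D5:**
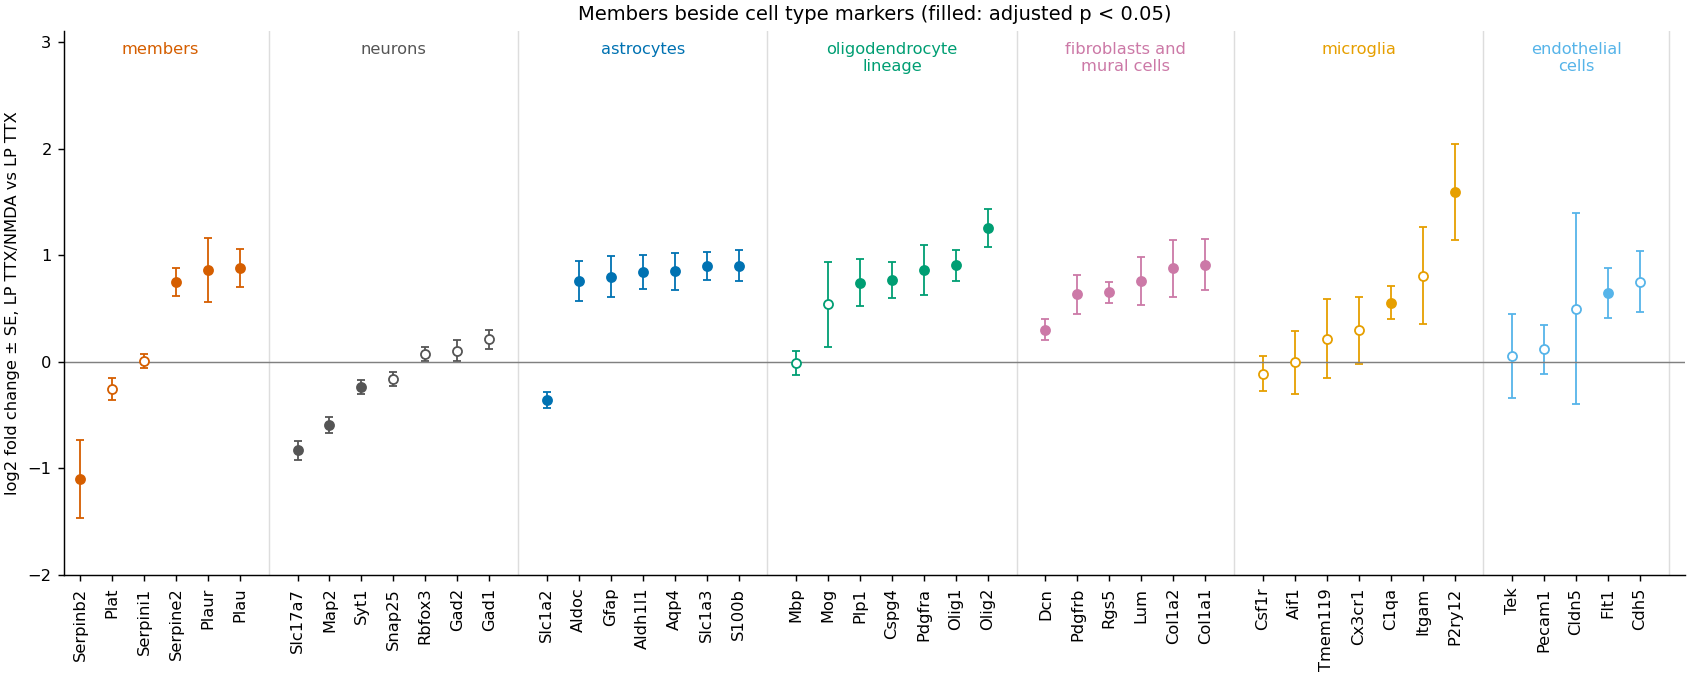
Log2 fold change ± SE for LP TTX/NMDA against LP TTX (vertical axis) of the 6 members and of 39 cell type markers, grouped by cell type, with filled points for an adjusted p below 0.05. Serpine2, Plaur and Plau sit at the height of most astrocyte, oligodendrocyte lineage and fibroblast markers, while Serpinb2 at -1.10 lies below every marker shown.

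In the short protocol no member was called. The share of all genes called was 0.268% for SP TTX against 1 h Bic, 4.28% for SP TTX/NMDA against SP TTX and 4.30% for SP TTX/NMDA against 1 h Bic. At an unadjusted p below 0.05 these comparisons held 1191, 4535 and 4634 genes. Plau was higher in SP TTX/NMDA than in SP TTX in 5 of 5 preparations (8.77, 9.73, 10.2, 8.03 and 4.95 CPM against 12.3, 13.9, 10.7, 10.4 and 5.35 CPM), by 0.32 on the log2 scale (SE 0.17, adjusted p = 0.403), and it was called with the preparation as a block (0.31, adjusted p = 0.0289) and without preparation 8 (0.34, adjusted p = 0.0490). The blocked fit called 2548 of 15705 genes in that comparison. Against 1 h Bic it called 4217 of 15435 genes in SP TTX/NMDA, among them 4 members. They were Plau (0.42, adjusted p = 0.00101), Serpine2 (0.25, adjusted p = 0.0135), Serpini1 (0.21, adjusted p = 0.00379) and Plat (-0.26, adjusted p = 0.0380). Serpini1 showed the clearest separation there, with 272 to 298 CPM in 1 h Bic and 305 to 364 CPM in SP TTX/NMDA, but the log2 fold change of 0.21 (SE 0.07, adjusted p = 0.0591) was not called. Beside the block, DESeq2 (adjusted p = 0.0169), the filterByExpr filter (adjusted p = 0.0387), all 45 libraries in 1 fit (adjusted p = 0.0452) and the fit without preparation 3 (adjusted p = 0.0414) called it.

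Whether NMDA acted differently in the long and the short protocol was tested directly. The difference of the NMDA effects, long minus short, was 0.57 for Serpine2 (SE 0.21, adjusted p = 0.162) and 0.57 for Plau (SE 0.29, adjusted p = 0.387), and no member was called where 2.57% of all genes were. With the preparation as a block both were called (0.58, adjusted p = 4.44e-05 for Serpine2 and 0.57, adjusted p = 0.00652 for Plau), as they were without preparation 8 (adjusted p = 0.0195 and 0.0314). Over all genes the blocked fit called 4165 of 16663, and the fit without preparation 8 called 1128 of 34065. For the effect of TTX, 0.256% of all genes and 0 members differed between the protocols. For LP TBOA against 2 h Bic, 0 members were called against 0.602% of all genes. The blocked fit called 418 of 15628 genes, among them Serpinb2 and Plat, both lower.

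The ratio between the transcripts of the 2 activators was higher after 2 h of firing and near its control value in LP TTX/NMDA. Per kilobase, Plat stood at 1.93 ± 0.39 times Plau in control (SD, n = 5), at 4.26 ± 1.18 times in 2 h Bic, at 3.88 ± 0.53 times in LP TTX, at 3.12 ± 0.72 times in LP TBOA and at 1.86 ± 0.49 times in LP TTX/NMDA. The 2 h Bic range (3.02 to 6.02) and the LP TTX range (3.30 to 4.46) did not overlap with that of control (1.46 to 2.35) or of LP TTX/NMDA (1.26 to 2.62). Serpine2 per kilobase was 3.33 ± 0.35 times Plat in control, 1.33 ± 0.14 times in 2 h Bic, 1.51 ± 0.20 times in LP TTX, 2.02 ± 0.24 times in LP TBOA and 3.00 ± 0.41 times in LP TTX/NMDA. These ratios are of transcripts, and they restate the levels above within each library.

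The genes whose levels ran most like those of each member over the 45 libraries were found by Pearson's r of log2 CPM among 13601 expressed genes. For Serpinb2 they were Sstr2 (r = 0.89), Trmt61b (0.88), Rem2 (0.88), Odc1 (0.88) and Apmap (0.88). Serpine2 ran with Zcchc24 (0.98), Pla2g7 (0.98) and Slco1c1 (0.98), and Serpini1 with Ap1s2 (0.91), Spock3 (0.90) and Ube2b (0.88). Plat ran with Armcx6 (0.94), Fgfr2 (0.94) and Ccnd3 (0.93), and Plau with Spp1 (0.93), Bgn (0.91) and Cald1 (0.91). The best match of Plaur, 2010001A14Rik, reached 0.69. The 45 points share 9 conditions, 5 preparations and library depth, and the values are a description.

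Of 18 other genes of the plasminogen system, 17 were tested in LP TTX/NMDA against LP TTX, and 4 were called, all higher. They were the plasminogen receptor Plgrkt (0.47, adjusted p = 0.00144), Anxa2, which binds tPA and plasminogen at the surface (0.75, adjusted p = 0.000986), Vtn, the matrix protein vitronectin (0.74, adjusted p = 0.0226), and the broad protease inhibitor A2m (0.67, adjusted p = 0.00701). That is 23.5% of the list, near the 23.3% of all genes, and the median log2 fold change of the list was 0.51 where that of all genes tested was 0.11. With filterByExpr 7826 of 16399 genes were called. At 2 h of Bic 1 of 16 tested was called, 6.25% where 9.02% of all genes were. It was Lrp1, the receptor that takes up activator and inhibitor complexes, with 0.43 (SE 0.10, adjusted p = 0.00385) and the list median was -0.18 where that of all genes was -0.0061. Plg, plasminogen itself, had 0 to 4 reads per library in control, 2 h Bic, LP TTX and LP TTX/NMDA.

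Among 17 substrates and partners of the system, 4 of 16 tested were higher at 2 h of Bic, 25% of the list where 9.02% of all genes were called, with medians of 0.18 in the list and -0.0061 over all genes. The share over all genes takes in every gene with 1 read or more. With filterByExpr 2865 of 15269 genes were called. Bdnf, a growth factor whose precursor plasmin can cut, rose by 1.497 (SE 0.10, adjusted p = 1.56e-13), and the matrix genes Fn1, Lamc1 and Lama1 by 0.83, 0.50 and 0.42 (adjusted p = 2.07e-05, 0.000155 and 0.0330). In LP TTX/NMDA against LP TTX, 7 of 17 were higher and 2 lower, 52.9% of the list where 23.3% of all genes were called, with a list median of 0.60 against 0.11 over all genes. With filterByExpr 7826 of 16399 genes were called, and the share of the list under that filter was not computed. Bdnf fell by 1.32 (adjusted p = 1.70e-12), while the matrix protease Mmp2 (0.80, adjusted p = 0.0113), Fn1 (0.74, adjusted p = 1.88e-05), Lama1 (0.68, adjusted p = 0.000902) and Hgf, a growth factor that uPA can activate (0.65, adjusted p = 0.0183), rose. Bdnf was also lower in SP TTX/NMDA than in SP TTX (-1.03, adjusted p = 5.33e-10), where Serpinb2 was not called.

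Of 65 other serpin genes, none of the 47 tested was called at 2 h of Bic, where 9.02% of all genes were. In LP TTX/NMDA against LP TTX 4 of 53 tested were called, 7.55% where all genes gave 23.3%. Testing needed only 1 read in the libraries compared, so serpins too low to be called can be among those tested. Serpinb5 (1.16, adjusted p = 0.00183), Serpinb1a (1.15, adjusted p = 0.00824) and Serpinh1, a collagen chaperone (0.87, adjusted p = 0.000127), were higher, and Serpinb8, a neighbour of Serpinb2 on chromosome 1, was lower (-0.69, adjusted p = 0.00164). Serpinb5 and Serpinb1a were at 0.640 and 0.635 CPM in LP TTX/NMDA. Reads shared by near-identical serpin copies were not counted by the authors, which can lower the counts of such genes.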

How the data were processed

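Raw read counts per gene in 45 libraries were the deposited values. The authors made these counts from stranded poly(A) libraries (single-end, 75 cycles) with STAR 2.5.4b on GRCm38 (Ensembl release 94) and featureCounts 1.6.5, leaving out reads that map to several places or overlap several genes, so a gene with a near-identical copy is undercounted. The 6 members and all gene lists were chosen with earlier results of these data known. A symbol was matched to 54409 of 54532 gene IDs.

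Each comparison used edgeR 4.0.16 (R 4.3.3) with TMM factors and the quasi-likelihood test on the libraries of its 2 conditions, keeping genes that 1 or more reads covered in these libraries. P-values were adjusted by Benjamini-Hochberg over all genes tested, and a gene was called at an adjusted p below 0.05. The SE is the log2 fold change over the square root of F. Differences between protocols were interaction terms. Tests are two-sided, and the scripts were tested on simulated data. Alternatives were RLE size factors, DESeq2 1.42.0, edgeR's filterByExpr, all 45 libraries in 1 fit, leaving out each preparation from both groups, and the preparation as a block with filterByExpr. Comparisons of 2 h Bic, LP TTX and LP TTX/NMDA with 1 h Bic were added after the values were seen.

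The labels give the culture preparation of each library, so equal numbers mark a shared preparation. Over 13601 genes, libraries of the same preparation deviated together in the planned and added comparisons (mean r from 0.354 to 0.548 per comparison, lowest pair -0.196 in LP TBOA against 2 h Bic). A blocked value stands beside a result where it changes the call.

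Named genes were the 6 members, other plasminogen system genes called in LP TTX/NMDA against LP TTX or at 2 h of Bic, and at most 5 substrates or serpins by size of change. Likeness used log2 CPM with a prior count of 2, for members with a mean of at least 10 reads, over genes with a mean of at least 1 CPM. Coordinates are from GENCODE M21 and promoters from RefSeq (4 of 6 members matched, Serpini1's 250 bases not printed, Plat and Plau not matched). Columns of the authors' own comparisons were not used. Tables and figures were made with Python 3.11.15, pandas 2.3.3, numpy 2.4.6 and matplotlib 3.10.9.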

Additional observations from a re-analysis of the deposited data

Results flagged for a closer look

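In 7 of the 54 combinations of a member and a condition, a single library stood farther from the other 4 than Dixon's critical value of 0.71 for 5 samples allows, where chance gives about 1 in 20. Serpinb2 accounted for 6 of them. Preparation 8 was the high library in control (0.573 CPM, others 0 to 0.0906), 1 h Bic (1.17 CPM, others 0.0633 to 0.177), SP TTX (0.925 CPM, others 0.0441 to 0.262), SP TTX/NMDA (0.640 CPM, others 0 to 0.117) and LP TTX/NMDA (1.77 CPM, others 0.223 to 0.482). These 5 libraries come from the same culture preparation and so are not independent. In 2 h Bic the high library was preparation 7 (5.90 CPM, others 3.04 to 3.17), where preparation 8 had the lowest level. Serpini1 had 336 CPM in preparation 7 of SP TTX, where the other 4 libraries had 279 to 291 CPM.

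No difference between the long and the short protocol was called for any member in the fits without a block over all 5 preparations. For the effect of NMDA, the difference was called for Serpine2 and Plau with the preparation as a block (adjusted p = 4.44e-05 and 0.00652) and without preparation 8 (adjusted p = 0.0195 and 0.0314). Over all genes these fits called 4165 of 16663 and 1128 of 34065.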

How the results depend on the processing

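No called fold change of a member changed sign under the alternatives named here. With the preparation as a replicate block (and filterByExpr), the count of members called went from 0 to 1 for SP TTX/NMDA against SP TTX, from 0 to 4 against 1 h Bic, from 1 to 3 for LP TTX against 2 h Bic, from 0 to 2 for LP TBOA and from 0 to 2 for the difference of NMDA effects, and beyond the calls given above the block changed no other call. Calls rose over all genes as well. In this order, the blocked fit called 2548 of 15705, 4217 of 15435, 4978 of 15570, 418 of 15628 and 4165 of 16663 genes. The fits without a block called 1379 of 32229, 1351 of 31414, 1485 of 31944, 191 of 31706 and 900 of 35027. DESeq2 called 1 member for SP TTX/NMDA against 1 h Bic, 2 for LP TTX, 2 in place of 4 for LP TTX/NMDA against LP TTX, and 1 for LP TBOA. RLE factors called 1 for LP TBOA. FilterByExpr called 0 at 1 h of Bic, 1 for SP TTX/NMDA against 1 h Bic and 2 for LP TTX. All 45 libraries in 1 fit called 0 at 1 h of Bic, 1 for SP TTX/NMDA against 1 h Bic and 0 for LP TTX. Both also lost the call of Serpinb2 for LP TTX/NMDA against LP TTX. Leaving out a preparation gave 0 to 1 members for SP TTX/NMDA against SP TTX, 0 to 2 against 1 h Bic, 1 to 2 for LP TTX, 2 to 5 for LP TTX/NMDA against LP TTX, 5 to 6 against 2 h Bic, 0 to 3 for LP TBOA and 0 to 2 for the difference of NMDA effects. The cause of these shifts was not tested, and in the fits of SP TTX/NMDA against SP TTX and of LP TBOA without preparation 8 edgeR set 1 trend of spread for all genes. The counts at 0.5 h (0) and 2 h of Bic (2), for SP TTX (0) and for the difference of TTX effects (0) were equal in all alternatives run. For the comparisons with 1 h Bic added later, the counts of members called were 2 for 2 h Bic and 3 for LP TTX in all alternatives, and for LP TTX/NMDA 5 became 6 with the block, 4 with DESeq2 and 4 to 6 when a preparation was left out. Serpinb2 and Plaur did not pass filterByExpr in some comparisons and have no value there. Depth limits Serpinb2 before 2 h (0 to 54 reads per library in the control, 0.5 h, 1 h and SP conditions) and Plaur throughout (3 to 48 reads).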
